A study of Homo sapiens with 3 samples.

Results

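The genes described here encode the core machinery by which mitochondria fuse and divide: MFN1, MFN2, OPA1, OMA1, YME1L1, DNM1L, FIS1, MFF, MTFP1 and GDAP1. They were taken by gene symbol and not by a cut on their values, though with earlier results of these data known. All 10 were found among the 19076 lines of the deposited table. Levels are in RPKM, read counts scaled to gene length and library size. Averaged over the 3 libraries all 10 reached 1 RPKM, the minimum for a comparison, and were among the 11572 genes that did.

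The 3 RNA samples came from MDA-MB-231, an established human breast cancer line, with 1 library for each form of KAP1. The S473D cells carried KAP1 with the serine of that label changed to aspartate, the S473A cells carried it changed to alanine, and the wt cells carried the wild-type form. All 3 groups share the depletion of KAP1 by a short hairpin RNA, so the wt group is a rescue and not an untreated line. Aspartate resembles a phosphorylated serine in charge, and alanine cannot be phosphorylated. The labels do not say whether each line was a clone or a pool, nor which promoter drove the re-expressed form, and they name no separate cultures of a form. TRIM28, the gene for KAP1, stood at 25.6 RPKM in S473D, 32.3 in S473A and 28.7 in wt, without a distinction between endogenous and re-expressed transcript. Of the markers of this line, VIM, CD44, KRT18 and EGFR lay between 49.5 and 740 RPKM in the 3 libraries. CDH1, EPCAM, ESR1 and PGR, which a luminal breast cell would express, reached at most 0.339 RPKM, while ERBB2 was at 5.34 in S473D, 7.50 in S473A and 7.94 in wt. With 1 library per form there is no replicate error and no test, so each difference below describes a pair of libraries. Intervals beside ratios are exact 95% intervals from estimated read numbers and cover counting error only.

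Mitochondria form a network that fuses and divides continuously. The mitofusins MFN1 and MFN2 join outer membranes, and OPA1 joins inner membranes. Cleavage by the proteases OMA1 and YME1L1 sets the balance of the long and short forms of OPA1. Division needs the GTPase DRP1, encoded by DNM1L, which is recruited from the cytosol by outer-membrane proteins such as MFF and encircles the organelle. Work on this serine of KAP1 has asked whether its phosphorylation bears on mitochondrial fusion. The values here are transcript levels in the 3 forms and do not measure fusion, division or the state of the proteins.

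Of the 10 genes, 8 have a promoter window in RefSeq's table (GRCh38.p14), running from 250 bases before the annotated start to 50 bases after it. The windows of the 3 fission genes that were highest in S473D relative to wt, and of the mitofusin gene MFN2, are shown because the contrast between those genes runs through the results. Capitals mark TGCGCA, the core of the NRF1 motif of many nuclear genes for mitochondrial proteins, and CCGGAAG, an ETS-type motif. The windows of MTFP1 and MFN2 hold neither and so have no capitals.

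FIS1 (chr7:101245032-101245331, minus strand): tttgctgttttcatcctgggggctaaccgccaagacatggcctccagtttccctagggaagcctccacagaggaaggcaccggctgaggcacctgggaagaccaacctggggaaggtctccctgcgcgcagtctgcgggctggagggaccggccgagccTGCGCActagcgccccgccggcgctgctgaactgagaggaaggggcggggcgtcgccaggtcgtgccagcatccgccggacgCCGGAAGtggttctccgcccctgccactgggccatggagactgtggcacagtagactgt
MTFP1 (chr22:30425518-30425817, plus strand): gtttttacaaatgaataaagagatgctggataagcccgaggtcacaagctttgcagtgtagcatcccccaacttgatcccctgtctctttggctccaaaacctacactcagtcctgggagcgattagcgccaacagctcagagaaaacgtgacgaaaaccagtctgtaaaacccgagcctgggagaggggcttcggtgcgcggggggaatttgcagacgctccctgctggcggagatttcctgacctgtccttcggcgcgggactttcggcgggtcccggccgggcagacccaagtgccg
MFF (chr2:227325001-227325300, plus strand): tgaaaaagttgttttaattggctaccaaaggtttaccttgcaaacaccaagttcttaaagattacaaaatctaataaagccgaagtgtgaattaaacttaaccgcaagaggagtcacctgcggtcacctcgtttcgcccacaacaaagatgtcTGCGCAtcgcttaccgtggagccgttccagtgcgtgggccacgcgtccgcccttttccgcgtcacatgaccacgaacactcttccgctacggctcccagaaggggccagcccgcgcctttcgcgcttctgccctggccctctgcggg
MFN2 (chr1:11980194-11980493, plus strand): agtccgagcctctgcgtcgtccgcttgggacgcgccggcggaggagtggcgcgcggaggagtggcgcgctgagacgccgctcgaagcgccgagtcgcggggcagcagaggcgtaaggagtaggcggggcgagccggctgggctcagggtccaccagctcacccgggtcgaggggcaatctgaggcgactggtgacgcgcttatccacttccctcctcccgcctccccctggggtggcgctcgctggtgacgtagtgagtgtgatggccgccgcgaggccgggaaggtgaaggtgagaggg

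TGCGCA, which reads the same on both strands, occurred in the windows of FIS1 and MFF and in those of OPA1, OMA1 and DNM1L, 5 of the 8. It was not in the windows of MTFP1, MFN2 or MFN1. The same letters occurred in 8.24% of all 35116 windows of this length and in 10.8% of the 15843 that belong to protein-coding genes. CCGGAAG, searched on both strands, occurred in the windows of FIS1 and MFN1, and in 14.2% of the protein-coding windows. The GC box GGGCGG, also searched on both strands, was in 6 of the 8 windows and in 58.5% of the protein-coding ones. The E-box CACGTG was in none of the 8, against 8.88% of the protein-coding windows. Genes with TGCGCA in the window included some that differed between the libraries (FIS1, MFF) and some that hardly did (OPA1, DNM1L), as the values below show.

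The 10 transcripts covered a wide range of levels, and the order among them was nearly the same in S473A and wt. In S473D the order ran from FIS1 at 64.9 RPKM through YME1L1, MTFP1, MFF, OPA1, MFN2, DNM1L, MFN1 and OMA1 down to GDAP1 at 4.43. In S473A it ran from YME1L1 at 52.9 RPKM through FIS1, OPA1, MFF, MTFP1, MFN2, DNM1L, MFN1 and OMA1 to GDAP1 at 3.31. In wt the order was that of S473A except that MFN2 stood above MTFP1, with YME1L1 highest at 52.0 RPKM and GDAP1 lowest at 3.81. Without replicates it cannot be said which neighbours in these orders differ. In S473D FIS1 stood above YME1L1, and MTFP1 above OPA1 and MFF, which was not so in the other libraries, while the 4 lowest places stayed with the same genes in all 3 libraries. Among all genes compared, YME1L1 lay at percentile 89.2 of level in S473D, 89.9 in S473A and 89.7 in wt, and GDAP1 at percentile 28.3, 18.9 and 22.0.

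**Figure D1:**
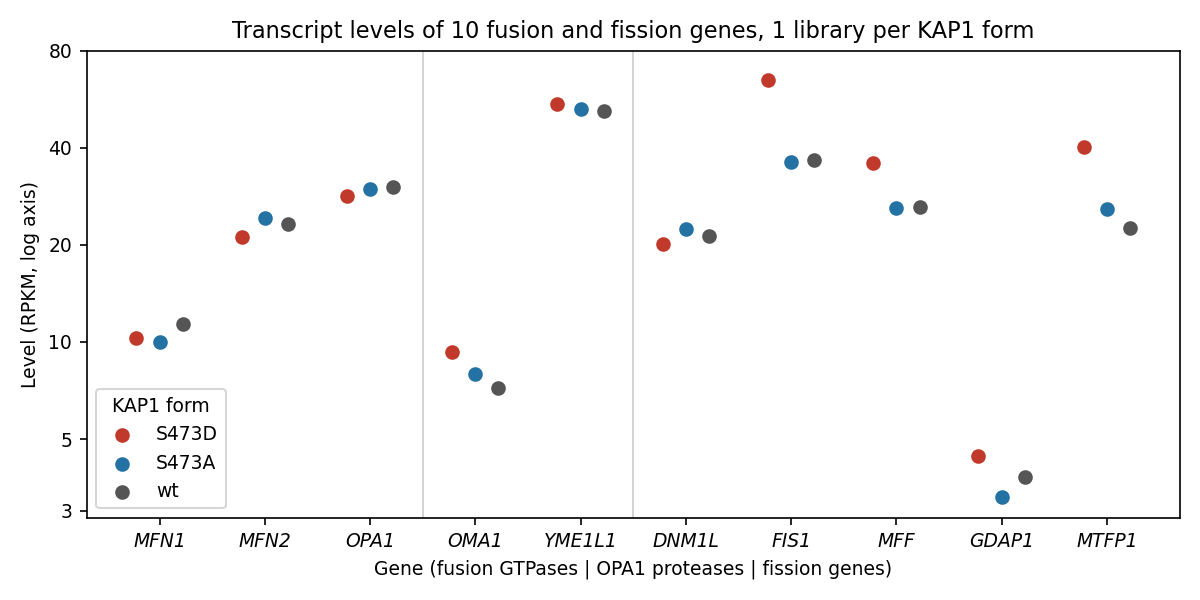
Levels of the 10 genes in RPKM on a log axis, 1 point per library, with S473D, S473A and wt from left to right within each gene and vertical lines between fusion GTPases, OPA1 proteases and fission genes. FIS1 (64.9 in S473D against 36.7 in wt), MTFP1 (40.3 against 22.6) and MFF (35.9 against 26.1) stand clear of the other libraries in S473D, and the fusion GTPases lie close together.

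The fusion GTPase genes differed little and, in S473D, lay slightly below wt. MFN1, an outer-membrane fusion GTPase, was at 10.3 RPKM in S473D, 9.97 in S473A and 11.3 in wt. MFN2, the mitofusin that also tethers mitochondria to the endoplasmic reticulum, was at 21.1 RPKM in S473D, 24.2 in S473A and 23.3 in wt. The 2 mitofusins thus had different lowest libraries, S473A for MFN1 and S473D for MFN2. The ratio of MFN2 to MFN1 within a library, which does not depend on how libraries are scaled, was 2.06 in S473D, 2.43 in S473A and 2.06 in wt. OPA1, the inner-membrane fusion GTPase, was at 28.4 RPKM in S473D, 29.9 in S473A and 30.3 in wt. The RPKM ratio of S473D to wt was 0.906 for MFN1 (interval 0.841 to 0.977), 0.907 for MFN2 (0.858 to 0.959) and 0.937 for OPA1 (0.900 to 0.976). These small shortfalls are close to that of the typical gene, since the median over all genes compared was -0.10 for S473D minus wt, as a difference in log2(RPKM + 1). Relative to that median MFN1 differed by -0.03, MFN2 by -0.04 and OPA1 by 0.01, so OPA1 changes direction with centring. OPA1 makes several splice forms, which a value per gene does not separate, and its noncoding partner OPA1-AS1 was at 0.249 RPKM in S473D, 0.545 in S473A and 0.156 in wt.

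Of the 2 proteases that cleave OPA1, OMA1 was higher in S473D than in wt as deposited, but not with the length and GC trends described below removed (-0.07), and YME1L1 differed little. OMA1, the stress-activated protease of the inner membrane, was at 9.34 RPKM in S473D, 7.94 in S473A and 7.21 in wt. Its ratio of S473D to wt was 1.30 (interval 1.12 to 1.49), and its log2 difference of 0.33 was exceeded by 16.0% of all genes. YME1L1, the constitutive protease of the intermembrane space, was at 54.6 RPKM in S473D, 52.9 in S473A and 52.0 in wt, a ratio of 1.05 (1.01 to 1.09). Within a library YME1L1 was 5.85 times OMA1 in S473D, 6.66 times in S473A and 7.21 times in wt. The ratio was thus below wt in both mutant forms as deposited, with the length trend left in. The OMA1 gene overlaps DAB1 in RefSeq's GRCh38.p14 annotation, and the labels state no strand-specific counting. Overlap was taken from the start and end of each gene, so whether exons overlap and reads could be shared was not examined.

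The fission genes fell into a GTPase that hardly differed and membrane proteins that were higher in S473D as deposited. DNM1L, the gene for DRP1, was at 20.2 RPKM in S473D, 22.4 in S473A and 21.3 in wt. Its ratio of S473D to wt was 0.946, and the interval of 0.893 to 1.003 holds 1, while relative to the median of all genes DNM1L was at 0.02. FIS1, an outer-membrane protein long placed in the fission machinery, was at 64.9 RPKM in S473D, 36.3 in S473A and 36.7 in wt. The FIS1 ratio was 1.77 over wt (1.61 to 1.95) and 1.79 over S473A (1.63 to 1.96), with S473A at 0.987 of wt (0.891 to 1.10). S473A and wt lay close together and S473D apart from both, and 2.65% of all genes had a higher difference between S473D and wt. MTFP1, an inner-membrane protein whose loss makes mitochondria hyperfuse, was at 40.3 RPKM in S473D, 25.8 in S473A and 22.6 in wt. Its ratio of S473D to wt was 1.78 (1.63 to 1.95), as large as that of FIS1, but unlike FIS1 it was also above wt in S473A, with a ratio of 1.14 (1.04 to 1.25). MFF, the main DRP1 receptor, was at 35.9 RPKM in S473D, 26.1 in S473A and 26.1 in wt, a ratio of 1.37 over wt (1.28 to 1.47). GDAP1, an outer-membrane protein mutated in a form of Charcot-Marie-Tooth neuropathy, was the lowest of the genes, at 4.43 RPKM in S473D, 3.31 in S473A and 3.81 in wt. Its ratio of S473D to wt was 1.16 (1.01 to 1.35) and that of S473D to S473A 1.34 (1.16 to 1.55). RefSeq's table lists 3 pseudogenes of MFF and 1 each of MFN1 and YME1L1, with which reads could be shared.

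**Figure D2:**
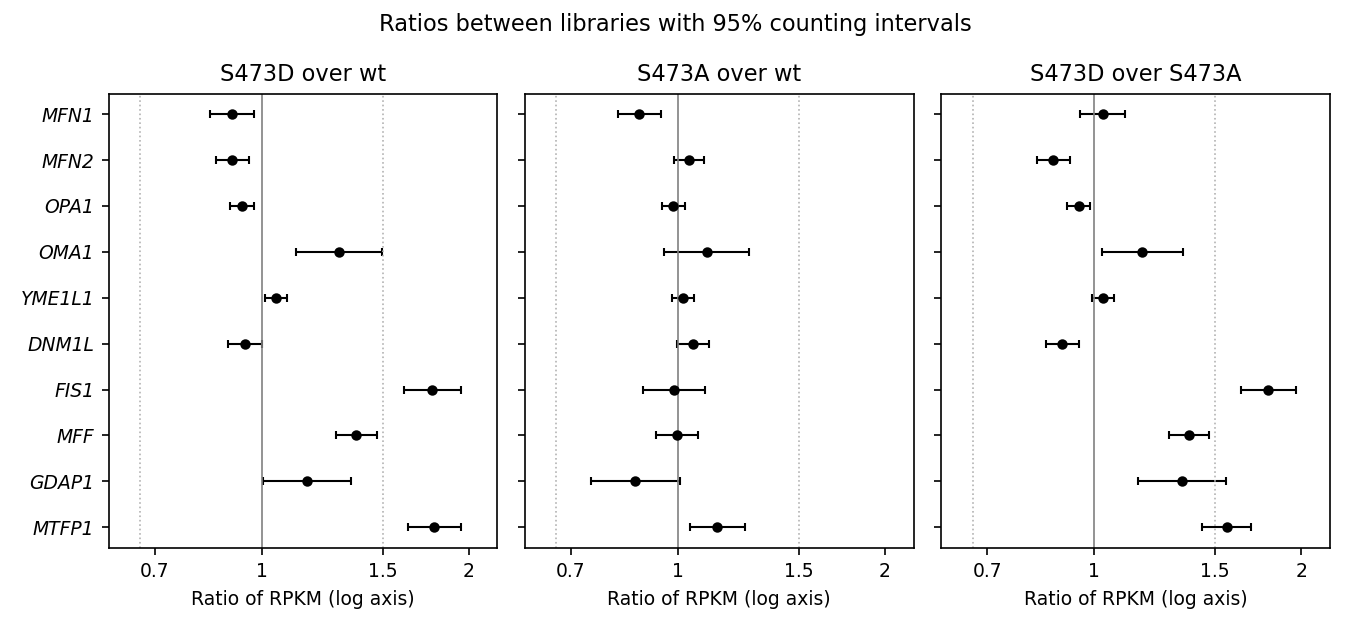
Ratios of RPKM between libraries on a log axis, with 1 panel per pair of libraries and 1 row per gene. Bars are exact 95% counting intervals, the solid line marks equal levels and dotted lines 1.5-fold. FIS1, MFF and MTFP1 lie to the right in both panels with S473D on top, and the S473A panel is centred near 1.

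Because FIS1 and MFF differed and DNM1L hardly did, the balance of these transcripts within a library differed in S473D as deposited. FIS1 was 3.22 times DNM1L in S473D, 1.62 times in S473A and 1.72 times in wt. MFF was 1.78 times DNM1L in S473D, 1.16 times in S473A and 1.22 times in wt. DNM1L itself was 0.712 of OPA1 in S473D, 0.752 in S473A and 0.704 in wt. The 2 large GTPases of division and inner-membrane fusion therefore kept a similar ratio in the 3 libraries, and the outer-membrane proteins did not. These ratios carry the length trend described below. FIS1 (0.734 kb) and MFF (2.19 kb) have shorter transcripts than DNM1L (4.44 kb) and OPA1 (6.49 kb). With the trends on length and GC removed, S473D minus wt was 0.32 for FIS1, 0.19 for MFF and -0.14 for DNM1L. As deposited it was 0.81, 0.44 and -0.08, so the contrast was smaller with the trends removed.

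Counted by a fixed size, few of the genes stood apart. Between S473D and wt 2 of the 10 genes, FIS1 and MTFP1 (0.81 and 0.80 on the log2(RPKM + 1) scale), were at least 1.5-fold higher and 0 at least 1.5-fold lower, where 6.83% of all genes compared were that much higher and 3.23% that much lower. With differences centred on their median these background shares became 9.56% and 1.11%, and with libraries scaled by trimmed log ratios 9.67% and 1.20%, with the same 2 genes called. With the trends described below removed the shares were 1.74% and 3.19%, and 1 of the 10 genes, MTFP1, was 1.5-fold higher, FIS1 no longer being so. None of the 10 genes was 2-fold apart, against 1.09% of all genes. In all, 6 genes were higher in S473D and 4 lower, and the median difference was 0.12 against -0.10 for all genes. Between S473D and S473A 2 of 10 were 1.5-fold apart, beside 9.86% of all genes. Both were higher, again FIS1 (0.82) and MTFP1 (0.62), beside 6.86% of all genes. The median there was 0.13 against -0.10 for all genes, and 0 genes were 2-fold apart, beside 1.13% of all genes. These comparisons share the S473D library, so they are not separate support for each other.

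Between S473A and wt 0 of 10 genes were 1.5-fold apart in either direction, beside 0.0951% of all genes higher and 0.147% lower, and 0 were 2-fold apart, beside 0.0173% of all genes. The median of the 10 differences was 0.01 against 0.00 for all genes, with 5 genes higher and 5 lower. The counting interval of the RPKM ratio held 1 for 8 of the 10 genes. The exceptions were MFN1, at 0.880 of wt (interval 0.819 to 0.945), and MTFP1. On the log2 scale MFN1 differed by -0.17, with 3.84% of all genes lower, and MTFP1 by 0.18, with 3.09% of all genes higher. GDAP1 (-0.16) had an interval of 0.747 to 1.007 for its ratio. Between S473D and wt, for comparison, the interval held 1 for 1 gene, DNM1L. These ratios were not centred on the median of all genes, which was -0.10 for S473D minus wt. MFN1, MFN2 and OPA1, with intervals below 1, were at -0.03, -0.04 and 0.01 when centred. The share of all genes whose interval held 1 was not computed for either pair.

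The differences of the 10 genes between S473D and wt followed the lengths of their transcripts closely. FIS1 has the shortest transcript, at 0.734 kb, followed by MTFP1 (1.37 kb), OMA1 (1.94 kb) and MFF (2.19 kb), and these are the 4 genes with the highest differences. OPA1 (6.49 kb), MFN1 (5.22 kb), MFN2 (4.54 kb) and DNM1L (4.44 kb) are the longest and are the 4 genes below wt as deposited. Across the 10 genes Spearman's rho between length and difference was -0.94. Across all 10782 genes with a matched transcript it was -0.44. The points share the same 2 libraries and genes are not replicates. Between S473A and wt rho was -0.42 over the 10 genes and -0.01 over all genes. In the shortest decile of all genes (up to 1.32 kb), which holds FIS1, the median difference between S473D and wt was 0.37, the upper quartile 0.66, and 31.0% of genes were at least 1.5-fold higher. In the next decile (1.32 to 1.84 kb), which holds MTFP1, the median was 0.13 and 13.5% were that much higher. In the decile that holds MFF and OMA1 (1.84 to 2.26 kb) the median was 0.03, with quartiles of -0.18 and 0.29, and both genes lay above the upper one. The decile with MFN2, YME1L1 and DNM1L (3.84 to 4.54 kb) had a median of -0.17, and that of OPA1 (5.58 to 7.30 kb) a median of -0.23. OPA1 (-0.09) lay above the middle of genes of its length, as each of the 10 genes did. With trends on length and GC both removed OPA1 was at -0.13, against -0.10 for all genes. With 1 library, a trend in the cells and one in the library cannot be told apart.

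**Figure D3:**
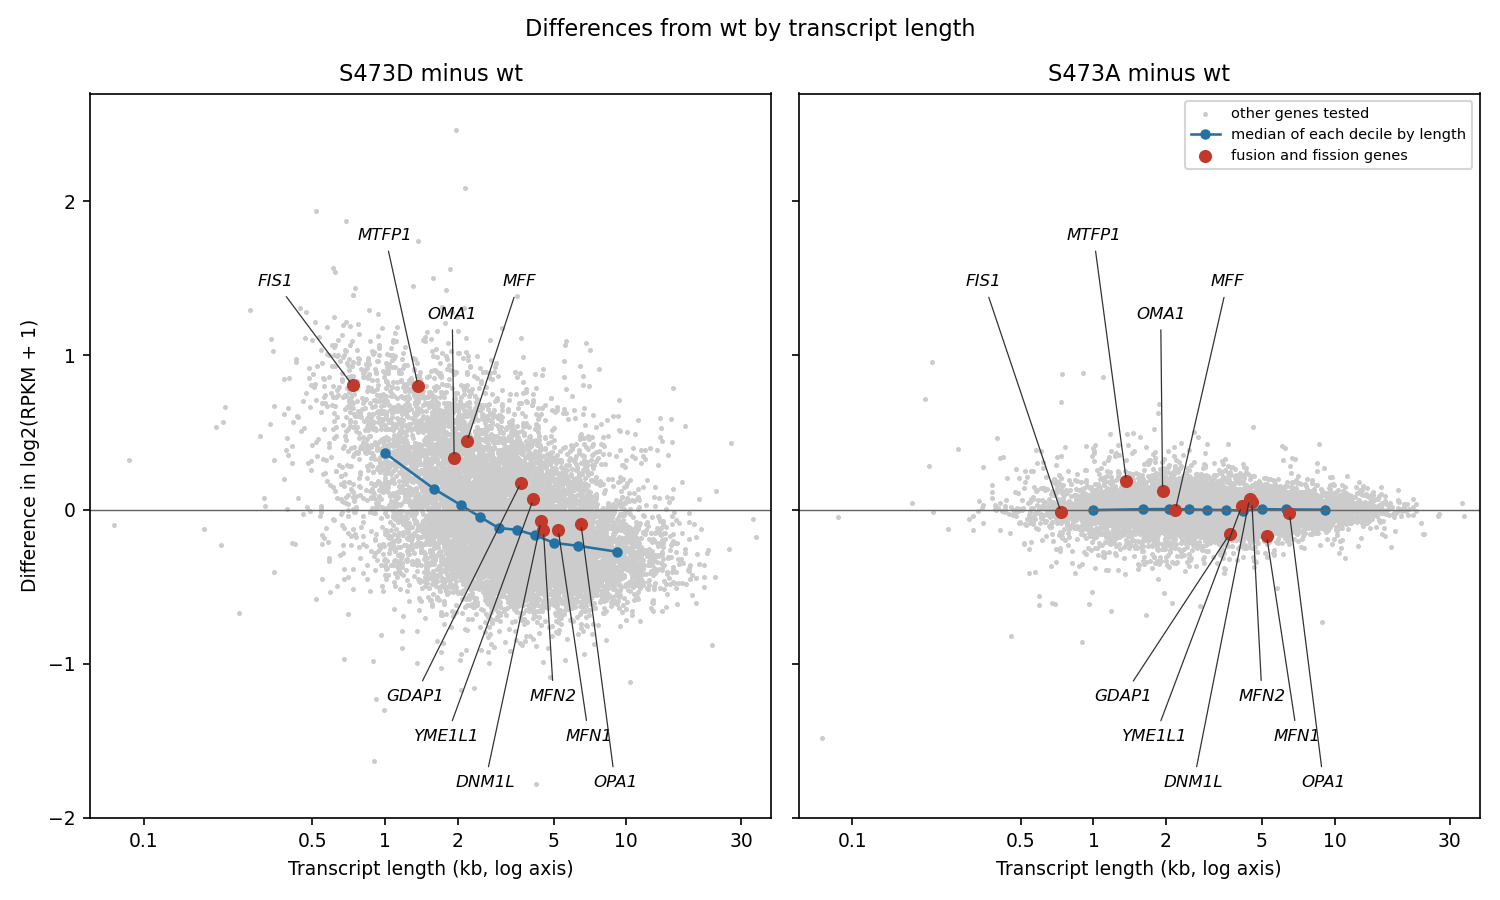
Difference in log2(RPKM + 1) from wt against transcript length on a log axis, for S473D on the left and S473A on the right, with all genes in grey, the 10 genes in red and the median of each decile of genes by length in blue. In S473D the medians run from 0.37 in the shortest decile to -0.27 in the longest, and the 10 genes follow the slope, while in S473A the medians stay near 0.

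When lowess trends with transcript length and base composition were taken out of the differences, and the overall median of -0.10 kept, MTFP1 stood out and FIS1 less so. The MTFP1 difference was 0.61, still over 1.5-fold, and was exceeded by 1.55% of all genes. The FIS1 difference was 0.32, exceeded by 7.81% of all genes. MFF was at 0.19 and GDAP1 at 0.05. OMA1 was at -0.07, against 0.33 as deposited, and MFN2 at 0.08, against -0.14, so the direction of both depends on the trend. With the shortest transcripts described next OMA1 was at 0.07 and GDAP1 at -0.13, so the direction of GDAP1 depends on the transcript chosen. MFN1 (-0.15), OPA1 (-0.13) and DNM1L (-0.14) remained below wt, and YME1L1 was at -0.01. The 1.5-fold count was then 1 of 10, and the median 0.02. Several of these genes have transcripts of different lengths: MFF spans 0.820 to 2.19 kb and MTFP1 0.891 to 1.37 kb among those with a RefSeq record. With the shortest such transcript of every gene, a choice made after the data were seen, MTFP1 was at 0.63, FIS1 at 0.56 and MFF at 0.14. Between S473D and S473A the difference with trends removed was 0.43 for MTFP1 and 0.33 for FIS1, and 0 genes were 1.5-fold apart.

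**Figure D4:**
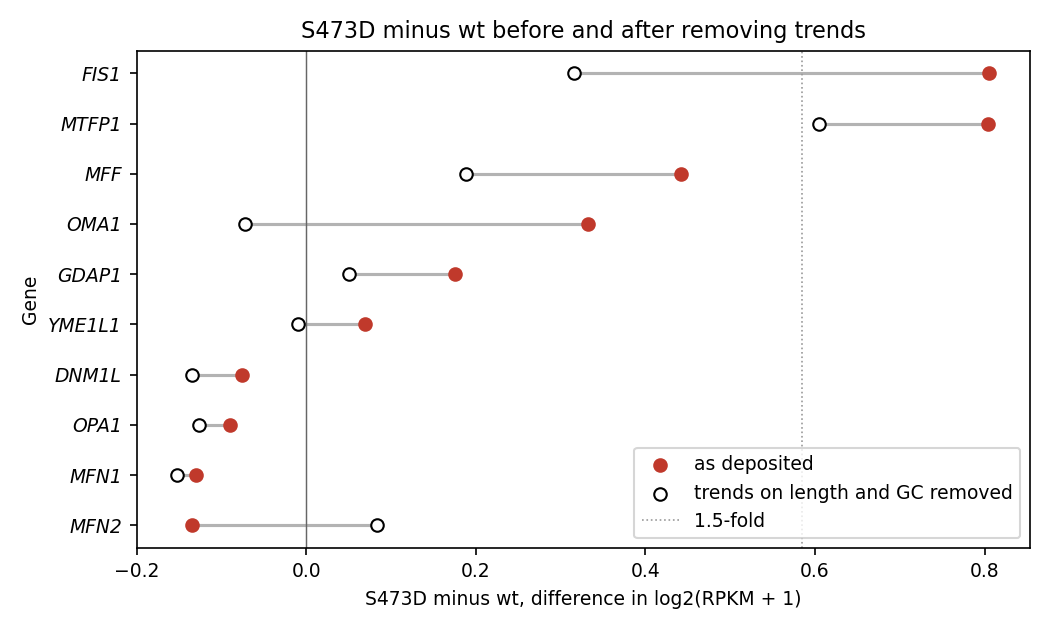
S473D minus wt on the log2(RPKM + 1) scale for the 10 genes, as deposited (filled) and with trends on transcript length and GC content removed (open), with a dotted line at 1.5-fold. MTFP1 stays past the line at 0.61, FIS1 moves to 0.32, and OMA1 and MFN2 cross 0.

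The genes whose pattern over the 3 libraries was most like that of FIS1 were RPL5, STARD3NL, FAU, ATP5C1 and RPS13. Likeness was the distance between the differences from wt of S473D and S473A, taken among 8122 other genes averaging 5 RPKM or more, and was 0.0165 to 0.0193 for these 5. RPL5, FAU and RPS13 encode ribosomal proteins or a fusion with one, ATP5C1 a subunit of ATP synthase, and STARD3NL a late endosomal membrane protein. RPL5 was at 1358 RPKM in S473D, 776 in S473A and 777 in wt, and ATP5C1 at 166.8, 93.3 and 95.6. Matched transcripts had 1028 bases for RPL5, 1728 for STARD3NL, 847 for FAU and 646 for RPS13, against 734 for FIS1. These lengths fall in the shortest decile of all genes and the next, where the median S473D minus wt was 0.37 and 0.13. Whether the likeness goes beyond transcript length was not tested.

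Other genes of mitochondrial dynamics were taken from 6 lists by role, 72 genes in all, of which 69 were compared. Between S473D and wt 28 of the 69 were higher and 41 lower, where 4546 of all 11572 genes were higher and 7026 lower. The median was -0.09 against -0.10 for all genes. At least 1.5-fold higher were 6 and that much lower 1, beside 6.83% and 3.23% of all genes. Between S473A and wt 0 of the 69 were 1.5-fold apart, beside 0.0951% of all genes higher and 0.147% lower.

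The inner-membrane list, with prohibitins, MICOS subunits and OPA1-processing proteins, held 11 of the 28 higher genes of the 6 lists and 3 of the 6 that were 1.5-fold higher. Of its 15 genes 11 were higher in S473D than in wt and 4 lower, with a median of 0.31. Of all 11572 genes 4546 were higher. At least 1.5-fold higher were 3 (ROMO1, APOO and CHCHD6, the last named after its value was seen), beside 6.83% of all genes. Their transcripts of 498, 1118 and 1006 bases fall in the shortest decile by length, where 31.0% of genes were that much higher. ROMO1, a small inner-membrane protein that affects OPA1 assembly, was at 187.0 RPKM in S473D, 81.6 in S473A and 86.8 in wt. It was the only one of the 69 genes that was 2-fold apart (1.10 on the log2 scale), beside 1.09% of all genes. Its transcript of 498 bases is shorter than that of FIS1. The MICOS subunit gene APOO was at 17.6 RPKM in S473D, 8.39 in S473A and 9.44 in wt. The lowest were OPA3 (-0.47) and the protease gene SPG7 (-0.43). With trends removed ROMO1 was at 0.54, APOO at 0.37 and the median of the list at 0.21, against -0.10 for all genes. Then 0 genes were 1.5-fold higher and 1 lower, beside 1.74% and 3.19% of all genes. The 1 lower was APOOL at -0.81, also named after its value was seen.

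Fission factors beyond the 10 genes lay near the median of all genes. Of 11 compared, 2 were higher in S473D than in wt and 9 lower, with a median of -0.13. The list had 0 genes 1.5-fold apart, beside 6.83% of all genes that much higher and 3.23% that much lower. Over all 11572 genes 7026 were lower and the median was -0.10. Centred on that median the list was at -0.03 against wt, and against S473A it was at 0.02 centred and -0.08 as deposited. The highest were BNIP1 (0.34) and MTFR1 (0.01), and the lowest SPIRE1 (-0.32), an actin nucleator at mitochondria, and SMCR7L (-0.21), the DRP1 receptor also called MIEF1. SMCR7L was at 13.9 RPKM in S473D, 16.8 in S473A and 16.2 in wt, so it was lowest in the library where MFF was highest. Most genes were lower in S473D than in wt, and no transcript was matched for SMCR7L to check it for the length trend. GDAP1L1, the closest relative of GDAP1, had at most 0.0973 RPKM in any library and was not compared.

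Genes for enzymes that modify DRP1 were mostly lower in S473D, 12 of 15 with a median of -0.28, where 7026 of all 11572 genes were lower with a median of -0.10. Centred on that median the list was at -0.18. CDK1 alone was at least 1.5-fold higher and PRKACA alone that much lower, 1 of 15 each beside 6.83% and 3.23% of all genes. PRKACA, the catalytic subunit of protein kinase A that phosphorylates DRP1 at an inhibitory site, was at 14.3 RPKM in S473D, 22.7 in S473A and 22.4 in wt (-0.61). PPP3R1, the regulatory subunit of calcineurin, which removes that phosphate, was at 29.2 RPKM in S473D, 43.7 in S473A and 43.7 in wt (-0.56). CDK1, which phosphorylates DRP1 in mitosis, went the other way, at 133.9 RPKM in S473D, 71.9 in S473A and 71.4 in wt (0.90), and was followed by CDK5 (0.19). With trends removed PRKACA was at -0.53, PPP3R1 at -0.74, CDK1 at 0.39 and the median of the list at -0.23.

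Outer-membrane fusion factors and their ubiquitin control stayed near the median of all genes. In S473D 3 of 9 were higher than in wt and 6 lower, with a median of -0.06 (0.04 centred). The list had 0 genes 1.5-fold apart, beside 6.83% of all genes that much higher and 3.23% that much lower. The deubiquitinase gene USP30 (0.20) and the ligase gene MUL1 (0.10) were highest. HUWE1 (-0.40), whose ligase targets MFN2, and FAM73A (-0.23), the mitoguardin gene MIGA1, were lowest. PARK2, the gene for parkin, was at 0.215 RPKM or less and was not compared. In S473A 8 of the 9 genes were above wt, with a median of 0.06 and a highest difference of 0.17. Of all 11572 genes 5757 were above wt in S473A, with a median of -0.0004. A transcript was matched for 7 of the 9, too few to check this list for the trends.

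Markers of mitochondrial content went both ways. Of 12 such genes 6 were higher and 6 lower in S473D than in wt, with a median of -0.06 (0.04 centred). The porin gene VDAC3 (0.72) and TOMM22 (0.46) were highest, with transcripts of 1355 and 2040 bases. VDAC3 alone was 1.5-fold apart, where 6.83% of all genes were that much higher and 3.23% that much lower. With trends removed VDAC3 was at 0.24 and VDAC1 at -0.60, past 1.5-fold, and the median was -0.18. The citrate synthase gene CS (54.7 RPKM in S473D, 79.6 in S473A and 80.4 in wt, a difference of -0.55) and VDAC1 (-0.38) were lowest. Of 7 biogenesis regulators 3 were higher and 4 lower, with a median of -0.06 (0.04 centred), TFB2M (0.84) and GABPA (0.10) highest and PPARGC1B (-0.38) and PPRC1 (-0.37) lowest. TFB2M alone was 1.5-fold apart, beside 6.83% of all genes that much higher and 3.23% that much lower. With trends removed TFB2M was at 0.47, GABPA at -0.02, PPARGC1B at -0.09 and PPRC1 at -0.07, and the median of these regulators was -0.02. PPARGC1A, the coactivator gene known to raise MFN2 in muscle, was at 0.185 RPKM in S473D, 0.268 in S473A and 0.319 in wt and was not compared.

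**Figure D5:**
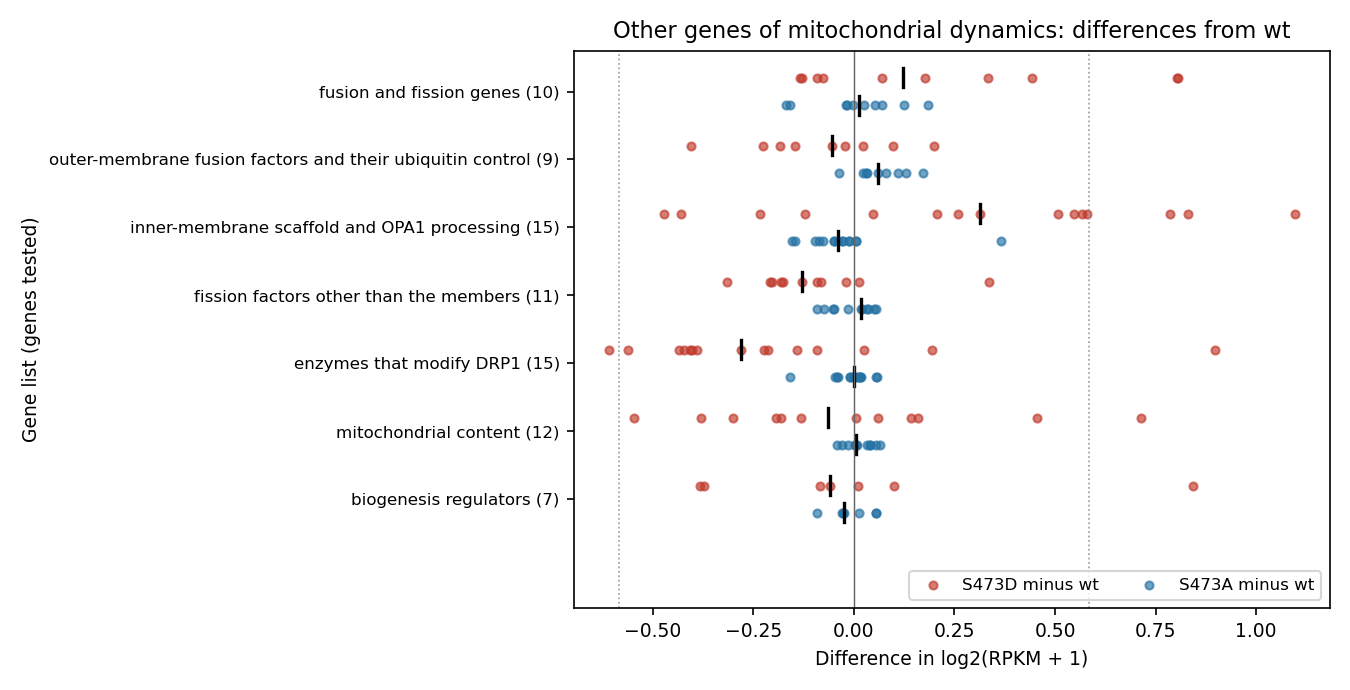
Differences in log2(RPKM + 1) from wt for the 10 genes and the 6 lists, 1 point per gene, S473D in red and S473A in blue, with black ticks at medians and dotted lines at 1.5-fold. The inner-membrane list has its S473D median at 0.31 and the DRP1-modifying enzymes at -0.28, while in S473A all medians lie between -0.04 and 0.06.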

How the data were processed

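RNA from KAP1-depleted MDA-MB-231 cells re-expressing S473D, S473A or wild-type KAP1 was sequenced as 1 library each and placed in its group by title. Reads were handled with Bowtie and Partek against hg19, as the submitters' processing notes list, with versions, annotation, counting rule and filters not stated. The authors deposited log2 values of RPKM, per the file headers and the values. The lowest is -3.32, the log2 of 0.1, so 0.1 was subtracted after undoing the log.

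Of 19076 lines, 27 with date-like or repeated symbols and 176 short RNAs were left out, and a mean of at least 1 RPKM was required, leaving 11572 genes. Differences were taken on log2(RPKM + 1), a scale that understates those of low genes. A gene was called at 1.5-fold, with 2-fold counts beside it. Depth was estimated from the steps between 2717 low genes (under 0.3 RPKM) and GENCODE release 29 transcript lengths, at 2.4e+07 counted reads in S473D, 2.95e+07 in S473A and 2.58e+07 in wt. Between 30.2% and 31.2% of low values were whole reads within 0.02 of a read, so these depths are approximate and no count model was used. Intervals for RPKM ratios are exact conditional binomial intervals at 95%. Trends were removed by lowess (fraction 0.2, 2 rounds) on the length and GC content of the longest RefSeq-recorded GENCODE transcript, which 93.2% of genes had. Symbols missing from the table were looked up among RefSeq synonyms, which placed FAM54A and FAM54B as MTFR2 and MTFR1L. The scripts were tested on simulated data. Python 3.11.15, scipy 1.17.1 and statsmodels 0.14.6 were used.

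The genes, lists and alternatives were chosen with earlier results of these data known. The rule names the 10 genes, TRIM28, the markers, the 2 highest and 2 lowest genes of each list between S473D and wt, and the 5 genes nearest FIS1. Alternatives were pseudocounts of 0.1 and 0.5, no filter, a minimum mean of 5 RPKM, centred differences, libraries scaled by trimmed log ratios, trends removed and short RNAs kept. Removing trends with the shortest RefSeq-recorded transcripts was added after the data were seen.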

Additional observations from a re-analysis of the deposited data

How the results depend on the processing

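No test of a difference is possible with 1 library per form, and the intervals cover counting error only. The values rest on RPKM as deposited, and the gene model lengths the authors used are not known. GDAP1, with 357 to 390 estimated reads a library, and OMA1, with 360 to 453, have the widest intervals. No paired analysis was possible because each form has 1 library.

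For the 10 genes the 1.5-fold counts of 2, 0 and 2 were the same under either pseudocount, either filter, with short RNAs kept and with centred or scaled values. At a mean of at least 5 RPKM, which leaves out GDAP1, the median was 0.07 for S473D minus wt and 0.04 for S473D minus S473A. Between S473D and wt the 1.5-fold count of 2 became 1 with trends removed, with either transcript choice. Between S473D and S473A it became 0 with trends removed, with either transcript choice, and the median of 0.13 became 0.23 with libraries scaled by a trimmed mean, 0.02 with trends removed (0.0151) and 0.0236 with the shortest transcripts. In the inner-membrane list the S473D minus wt count of 3 became 7 with centred or scaled values and 1 with trends removed. Over all genes the share 1.5-fold higher went from 6.83% to 9.56% centred, 9.67% scaled and 1.74% with trends removed. The share that much lower went from 3.23% to 1.11%, 1.20% and 3.19%. The median of the list, 0.31, became 0.51 at a mean of at least 5 RPKM, 0.42 with scaled libraries and 0.18 with the shortest transcripts. Against S473A its median of 0.32 became 0.43 scaled, 0.086 with trends removed and 0.17 with the shortest transcripts. For the DRP1-modifying enzymes the count of 2 became 1 in both comparisons with centred or scaled values or with trends removed. Their median became -0.180 centred and -0.178 scaled against wt, and -0.133 centred and -0.132 scaled against S473A. The median of mitochondrial content became 0.037 centred, 0.046 scaled, -0.175 with trends removed and -0.162 with the shortest transcripts against wt, and 0.028, 0.036, -0.191 and -0.213 against S473A, and its count of 1 became 0 with the shortest transcripts in both. The count of 1 biogenesis regulator became 2 with a pseudocount of 0.1 and 0 with trends removed in both comparisons. With that pseudocount 8.11% of all genes were 1.5-fold higher in S473D than in wt and 6.85% that much lower. Against S473A these shares were 8.13% and 6.75%. The median of the other fission factors against S473A became -0.23 with the shortest transcripts. Between S473D and wt the genes called in the lists with trends removed were other ones than before, each lower in S473D. They were APOOL (-0.81) in the inner-membrane list, PPP3R1 (-0.74) among DRP1-modifying enzymes and VDAC1 (-0.60) in mitochondrial content. None of the shifts was tested for a cause.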
